A study of Mus musculus with 22 samples.

Results

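The canonical replication-dependent histone genes were taken as every gene of the deposited expression table whose symbol begins with Hist1h, Hist2h, Hist3h or Hist4h, a rule that uses no measured value. It gave 68 of 23997 genes. Of these, 6 are of the linker histone H1, 18 of H2A, 19 of H2B (with the pseudogene Hist3h2bb-ps), 12 of H3 and 13 of H4. Their RNA was measured in 22 total RNA libraries of the colon of wild type BALB/c mice. From the age of 5 weeks, the mice of HMLS (n = 4) and of TM (n = 5) drank the deep sea water sample of that name for 3 weeks, and the water of the last 1 week also held 5% DSS (dextran sulfate sodium, which injures the colon epithelium and causes colitis). The DSS group (n = 5) drank distilled water for the same time, likewise with 5% DSS in the last 1 week, and the CON group (n = 8) drank distilled water throughout. HMLS and TM differ from CON in both the water and DSS, so these cannot be told apart in a comparison with CON, while HMLS and TM differ from the DSS group by design in the water alone. The labels do not say whether the libraries come from separate animals, so the p-values measure the spread between libraries, which may be technical.

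Library totals lay between 48089882 and 68733410 reads, and between 82.3% and 92.71% of the reads were mapped. The percentage mapped averaged 86.57 ± 2.807 in DSS (SD, n = 5) and 91.02 ± 0.7108 in CON (SD, n = 8; exact permutation test, two-sided, p = 0.000777, adjusted p = 0.00932 over 12 comparisons), with every DSS library below every CON library. It averaged 91.53 ± 1.27 in TM (SD, n = 5; against DSS exact permutation p = 0.00794, the smallest possible, adjusted p = 0.0476), and every TM library, from 89.52 up, was above every DSS library, from 88.92 down. In HMLS it averaged 89.88 ± 0.762 (SD, n = 4; exact permutation test, adjusted p = 0.127 against DSS and 0.113 against CON). The label of colon fitted the markers, since 10 colon epithelium genes summed to between 9180 and 16310 FPKM in a library and 5 genes of the small intestine to between 0.996 and 17.88 FPKM. FPKM scale the fragments of a gene by its length and by the size of the library, so levels of different genes can be set side by side per length. The number of reads behind each value is unknown.

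Canonical histones pack newly made DNA, and their genes are switched on as cells enter S phase, when DNA is copied. Their mRNAs usually have no introns and no poly(A) tail. They end instead in a short stem-loop that the protein Slbp binds, and the U7 particle, which contains Lsm10 and Lsm11, guides the cut that forms this end. The mRNAs are degraded when DNA synthesis stops, so their level in a tissue follows the dividing cells, which in the colon lie mainly in the lower part of the crypts. A few of these genes are also known, from human cells, to give mRNAs with a poly(A) tail in cells that have stopped dividing.

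The stem-loop is shown first because it is the feature that sets these mRNAs apart. A search of the annotated mouse transcripts (GENCODE M21, build GRCm38) on the transcript's own strand, for the letters GG, any 2 bases, CTTTT, any base, AG, any 2 bases and CC, found it in 44 of the 68 genes. The capitals below mark the stem and loop, the lower case letters are the 5 bases on each side, and the genes were chosen to show each form once, with Hist1h1c added for its different behaviour. The form of Hist1h3b was held by 26 genes, that of Hist1h4h by 7 genes, that of Hist1h2bk by 6, those of Hist1h4j and of Hist1h4i by 2 each, and that of Hist2h2ac by 1.
Hist1h3b: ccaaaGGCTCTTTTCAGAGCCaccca
Hist1h4h: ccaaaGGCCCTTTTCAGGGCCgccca
Hist1h2bk: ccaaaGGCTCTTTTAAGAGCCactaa
Hist1h4j: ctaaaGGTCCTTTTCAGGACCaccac
Hist1h4i: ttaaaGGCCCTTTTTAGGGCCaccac
Hist2h2ac: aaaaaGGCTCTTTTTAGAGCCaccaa
Hist1h1c: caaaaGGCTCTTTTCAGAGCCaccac

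These forms differ in paired positions of the stem and at 1 base of the loop, and the H4 genes in this set carry the forms with more G and C or the form of Hist1h4j. In 22 of the 44 genes an annotated transcript runs more than 100 bases past the stem-loop, as in Hist1h1c, where it goes on for 840 bases. In Hist1h3b the transcript ends 51 bases after it. For the other 24 genes these letters are not in the annotated transcripts, which says nothing of the mRNA itself.

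By RefSeq coordinates on GRCm38.p6, 54 of the genes lie on chromosome 13 between 21715711 and 23934913, 10 on chromosome 3, 3 on chromosome 11 and 1 (Hist4h4) on chromosome 6. In 14 places the starts of neighbouring genes face away from each other less than 1000 bases apart, and 13 of these pairs join an H2A to an H2B gene, with 163 to 280 bases between the genes. The gaps of a pair of these neighbours are shown because both genes of each were among those that fell in HMLS, and the stretch before Hist1h1c because that gene did not pass the test. They are taken from RefSeq promoters, read toward the first gene named. The capitals mark the octamer (ATTTGCAT or its reverse ATGCAAAT), which the factor Pou2f1 binds, and the AC box of H1 genes (AAACACA or its reverse TGTGTTT).
Hist1h2ah/Hist1h2bk, chr13:22035644-22035820, minus strand: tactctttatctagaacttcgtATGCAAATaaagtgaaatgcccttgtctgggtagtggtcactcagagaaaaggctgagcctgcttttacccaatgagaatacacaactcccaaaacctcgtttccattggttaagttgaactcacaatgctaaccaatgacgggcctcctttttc
Hist1h2ag/Hist1h2bj, chr13:22042950-22043197, minus strand: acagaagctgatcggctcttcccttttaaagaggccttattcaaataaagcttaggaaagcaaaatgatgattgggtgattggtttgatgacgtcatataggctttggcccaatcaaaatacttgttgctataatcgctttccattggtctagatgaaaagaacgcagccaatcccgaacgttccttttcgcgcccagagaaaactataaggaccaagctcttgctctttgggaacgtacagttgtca
Hist1h1c, chr13:23738657-23738806, plus strand: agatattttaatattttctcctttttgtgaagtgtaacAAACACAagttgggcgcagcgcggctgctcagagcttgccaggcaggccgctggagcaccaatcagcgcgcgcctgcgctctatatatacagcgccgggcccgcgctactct

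Promoter windows of 250 bases before to 50 bases after the start were found for 62 of the 68 genes (63 windows). Windows of facing pairs can overlap, so the same stretch can be counted for both genes, and counts of windows are not counts of separate sites. This holds for the octamer of Hist1h2ae and Hist1h2bg and for the AC box of Hist1h2aa and Hist1h2ba. The octamer was in 14 of the 63 windows (22.2%), against 1.74% of all 32851 promoter windows, and these 14 were 7 of 18 H2A and 7 of 17 H2B windows. The AC box was in 5 of 6 H1 windows and in 9 of the 63 windows (14.3%), against 7.18% of all. The letters CCAAT or ATTGG were in 54 of the 63 windows (85.7%), against 37.4% of all, with every H1, H2A, H2B and H3 window among them but 3 of 12 H4 windows. TATAAA or its reverse was in 35 of the 63 windows (55.6%), against 13.6% of all. Both strands were searched, matches of different motifs shared bases in 0 of the 63 windows, and a match is a description of the letters and not of a bound factor.

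Of the 68 genes, 48 were at 1 FPKM or more in all 22 libraries and 11 averaged 100 FPKM or more over the libraries. The highest averages over the libraries were those of the H1 genes Hist1h1c and Hist1h1e and the H4 genes Hist1h4d and Hist4h4. They were followed by Hist1h4h and Hist1h4c (H4), Hist1h2bc and Hist2h2bb (H2B), Hist1h1d (H1) and Hist1h3e (H3). Hist2h2ac was the highest H2A gene. The order depends on the groups, since in CON alone Hist4h4 (326.1 FPKM) and Hist1h4h (289.2 FPKM) averaged more than Hist1h1e (250.3 FPKM). At the other end, 6 genes were listed at 0 in every library (Hist1h2aa, Hist1h2bq, Hist1h2br, Hist1h4n, Hist2h3c1 and Hist2h3c2), and Hist1h2ao, Hist1h2ap and Hist1h2ba were listed at 0 in 20 or 21 libraries.

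Many of the genes are near-identical copies, and 64 of 68 share at least 1 stretch of 50 bases with another annotated transcript. The submitters' processing notes name Cufflinks, but no source used here gives its setting for dividing reads among copies. The level of a gene with a large shared part is therefore uncertain. Of the genes at 0, Hist2h3c1 shares 100% of its stretches of 50 bases with other transcripts, Hist1h2bq 97.3% and Hist1h4n 85.6%. Hist1h1a, Hist1h1b, Hist1h1t and Hist2h2be share none. The 3 listed genes known for their use in the testis were absent or low, with Hist1h2aa at 0 throughout, Hist1h2ba above 0 in 2 libraries (0.624 FPKM in DSS replicate 2 and 0.373 FPKM in CON replicate 3), and Hist1h1t at most 1.78 FPKM. The testis gene Hist3h3 was not analysed here.

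Summed over the 68 genes, the histone RNA was lowest in HMLS. The sums were 2599, 1899, 2192 and 2286 FPKM in HMLS, and 4666, 2703, 3259, 2658 and 2691 FPKM in TM. In DSS they were 6584, 3072, 2570, 2839 and 2994 FPKM, and in CON they ran from 3034 to 7763 FPKM with a median of 4529 FPKM. All 4 HMLS libraries were below every CON library, as were 3 of 5 in TM and 3 of 5 in DSS. The libraries TM replicate 3 and DSS replicate 1 stood above the rest of their groups and within the range of CON. The means were 2244 ± 288.1 FPKM in HMLS (SD, n = 4), 3195 ± 858.9 in TM (SD, n = 5), 3612 ± 1672 in DSS (SD, n = 5) and 4885 ± 1685 in CON (SD, n = 8), which is 45.9% of the CON mean in HMLS, 65.4% in TM and 73.9% in DSS. In colon tissue, fewer dividing cells and less RNA per cell cannot be told apart.

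**Figure D1:**
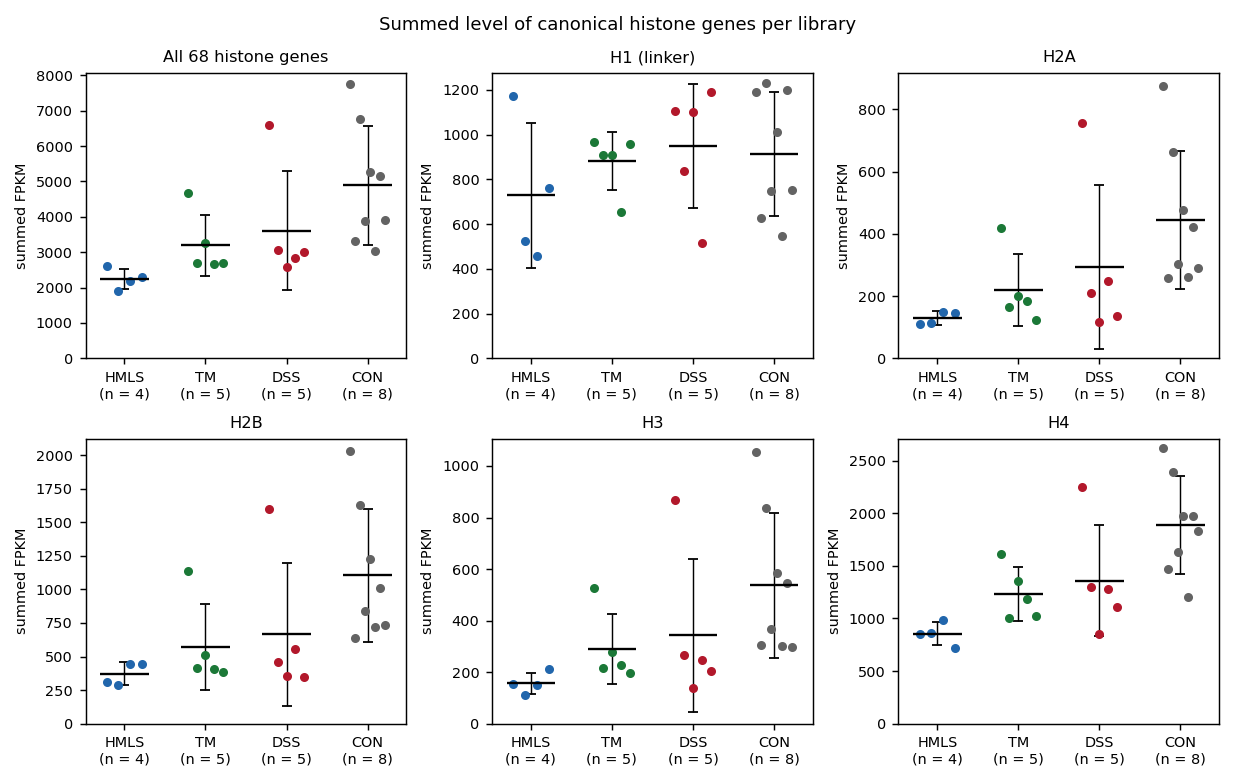
Summed FPKM of the canonical histone genes in each library, for all 68 genes and for each histone type, with HMLS, TM, DSS and CON from left to right. Points are libraries, the long line is the mean and the bar is the SD. For H2A, H2B, H3 and H4 all HMLS libraries lie below the lowest CON library, while for H1 the groups overlap.

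The types did not share the difference evenly. The H2A genes summed to 29.3% of the CON mean in HMLS, the H3 genes to 29.3%, the H2B genes to 33.8% and the H4 genes to 45.4%, whereas the H1 genes summed to 79.7%. In TM the same percentages of the CON mean were 49.3 for H2A, 53.7 for H3, 51.9 for H2B, 65.5 for H4 and 96.4 for H1. In DSS they were 66.2 for H2A, 64.0 for H3, 60.2 for H2B, 72.0 for H4 and 104 for H1. Without DSS replicate 1 the DSS percentages were 40.2 for H2A, 39.6 for H3, 39 for H2B and 60.2 for H4. Without TM replicate 3 the TM percentages were 37.9 for H2A, 42.7 for H3, 39.1 for H2B and 60.4 for H4. Summed over all histone genes, DSS was then at 58.7% and TM at 57.9% of the CON mean, so their order rests on these libraries. Without HMLS replicate 3 the H1 percentage in HMLS was 63.5. These alternatives were chosen after seeing the data. The H1 sums in HMLS were 1174, 522.7, 457.1 and 760.6 FPKM, against 549.1 to 1233 FPKM in CON, so replicates 6 and 7 were below every CON library. These sums are descriptions without a test, and the H1 sum is carried by Hist1h1c and Hist1h1e.

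HMLS was compared with CON to ask what colitis in mice drinking this water did to the histone genes. RNA of genes from all 5 types fell, though the H1 genes Hist1h1c and Hist1h1e did not pass the test. Of the 56 genes that passed the filter of at least 1 FPKM in at least 4 libraries, 52 were lower in HMLS and none was higher (limma on log2(FPKM + 1), Benjamini-Hochberg adjusted p under 0.05 over all 13400 genes). Among all genes tested, 16.6% were lower and 17.5% higher. The median log2 fold change was -1.57 over the histone genes and 0.00 over all genes tested. By type, 13 of 13 H2A, 10 of 10 H3, 12 of 12 H4, 14 of 16 H2B and 3 of 5 H1 genes were lower, with median log2 fold changes of -1.93, -2.05, -1.28, -1.69 and -1.12 in that order. In 37 of the 56 genes every HMLS library was below every CON library, which 7.21% of all genes tested showed.

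The largest decreases on the log2 scale were those of the H3 gene Hist1h3b and the H2A gene Hist1h2ag. Hist1h3b was at 0.613, 3.76, 8.35 and 7.84 FPKM in HMLS, against 17.7 to 113.5 FPKM with a median of 36.0 FPKM in CON. No HMLS library reached the lowest CON library, and the log2 fold change was -3.01 ± 0.588 (SE; limma, adjusted p = 0.00346). Hist1h2ag was listed at 0 in HMLS replicate 3 and was at 1.35, 0.464 and 2.96 FPKM in the other HMLS libraries, against 6.10 to 39.97 FPKM with a median of 12.6 FPKM in CON. Again the groups did not overlap (-2.96 ± 0.481; limma, adjusted p = 0.00118). This gene shares 78.9% of its stretches of 50 bases with other transcripts, so its own level is uncertain.

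The next largest decreases were those of the H2B genes Hist1h2bm (-2.85), Hist1h2bk (-2.55) and Hist1h2bj (-2.53), the H3 gene Hist1h3c (-2.50) and the H2A genes Hist1h2ab (-2.49) and Hist1h2ad (-2.48), with adjusted p between 0.0007 and 0.00551 in limma. Hist1h2bk, whose facing pair with Hist1h2ah is shown above, was at 4.33, 4.99, 7.09 and 8.54 FPKM in HMLS, against 20.6 to 97.85 FPKM with a median of 34.0 FPKM in CON. All 4 HMLS values lay far under the CON range. Its neighbour Hist1h2ah had a log2 fold change of -2.18, also lower by the test. In the other pair shown, which lacks the exact octamer, the values were -2.96 for Hist1h2ag and -2.53 for Hist1h2bj.

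Among the abundant genes the decreases were smaller on the log2 scale. The H4 gene Hist4h4, alone on chromosome 6, was at 133.5, 166.5, 171.1 and 131.4 FPKM in HMLS, against 227.5 to 448.9 FPKM with a median of 309 FPKM in CON. The groups did not overlap (log2 fold change -1.08 ± 0.168; limma, adjusted p = 0.000578). Hist1h4i, another H4 gene, had the smallest adjusted p of the set, 0.000227 in limma. It was at 19.2, 20.8, 29.6 and 14.6 FPKM in HMLS, against 44.2 to 122.7 FPKM with a median of 86.4 FPKM in CON, without overlap. Other abundant genes that fell were Hist1h4h (-1.32), Hist1h4d (-0.91), Hist1h4c (-0.72), Hist1h2bc (-0.79), Hist2h2bb (-1.47), Hist1h1d (-1.12), Hist1h3e (-0.96) and Hist2h2ac (-1.50).

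The 4 genes that did not pass in HMLS against CON were Hist1h1c, Hist1h1e, Hist1h2bp and the pseudogene Hist3h2bb-ps. Hist1h1c, a linker histone and the most abundant gene of the set, was at 667.3, 330.2, 264.6 and 421.8 FPKM in HMLS, against 233.8 to 530.6 FPKM with a median of 416.5 FPKM in CON. HMLS replicate 3 was above every CON library and the other 3 lay inside the CON range, and the log2 fold change was 0.02 ± 0.237 (limma, adjusted p = 0.957). Hist1h1e, also a linker histone, was at 406.6, 133.2, 112.0 and 203.9 FPKM in HMLS, against 150.9 to 348.2 FPKM in CON (-0.35; limma, adjusted p = 0.433). Here HMLS replicate 3 was above every CON library, while HMLS replicates 6 and 7 were below every one. Hist1h2bp had a log2 fold change of -1.77 with an adjusted p of 0.0513, and Hist3h2bb-ps one of -0.56 (0.161). The other linker genes Hist1h1a (-2.36), Hist1h1b (-1.74) and Hist1h1d (-1.12) were lower, so the linker genes did not move as a group.

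**Figure D2:**
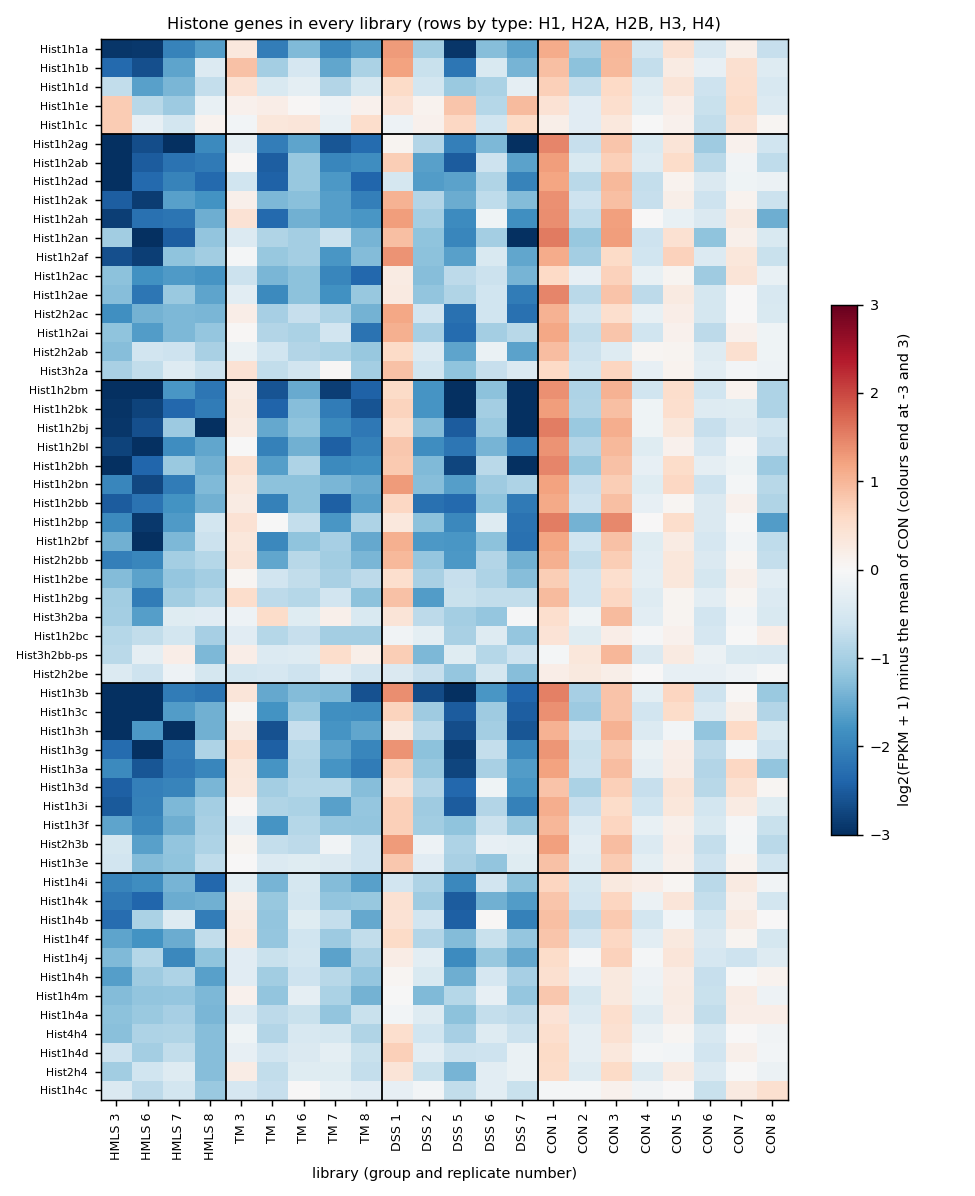
Level of the 56 tested histone genes in each library, as log2(FPKM + 1) minus the mean of CON, with libraries in columns (HMLS, TM, DSS and CON from left to right) and genes in rows by type. The HMLS columns are low in nearly all rows, but lie on both sides of the CON mean for Hist1h1c. For Hist1h1e only HMLS replicate 3 is above the CON mean. TM replicate 3 and DSS replicate 1 are near or above the CON mean in most rows.

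TM was compared with CON to ask the same of the other water. Of 56 genes tested, 21 were lower in TM and none was higher, against 11.8% lower and 14.3% higher among all 13485 genes tested. The median log2 fold change was -0.85 over the histone genes and 0.01 over all genes. By type, 7 of 13 H2A, 6 of 16 H2B, 5 of 12 H4, 2 of 10 H3 and 1 of 5 H1 genes were lower. A complete separation of the groups was seen in 1 of the 56 genes, Hist2h2be, and in 3.4% of all genes tested.

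The largest decrease was that of the H2B gene Hist1h2bm. It was at 63.7, 8.08, 18.1, 6.65 and 9.18 FPKM in TM, against 27.8 to 139.9 FPKM with a median of 46.3 FPKM in CON. TM replicate 3 lay inside the CON range and the other 4 TM libraries below it (-1.82 ± 0.558; limma, adjusted p = 0.0309). The H2A gene Hist1h2ac, which in human is known also to give a poly(A) mRNA, was at 19.8, 11.7, 12.9, 7.37 and 5.39 FPKM in TM, against 14.4 to 51.3 FPKM with a median of 30.2 FPKM in CON. Here 4 of 5 TM libraries were below every CON library (-1.51 ± 0.312; limma, adjusted p = 0.0043).

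Hist1h2bc, an H2B gene that faces Hist1h2ac, was at 168.9, 117.4, 133.3, 104.8 and 104.9 FPKM in TM, against 151.2 to 284.0 FPKM in CON, with 1 TM library inside the CON range (-0.79 ± 0.158; limma, adjusted p = 0.00297, the smallest of the set in this comparison). Hist2h2be, the H2B gene that separated the groups, was low in all libraries, at 3.71, 3.90, 3.48, 4.51 and 3.67 FPKM in TM, against 4.77 to 7.41 FPKM in CON (-0.51; limma, adjusted p = 0.00414). Further large decreases were those of Hist1h2ag (-1.76), Hist1h2ad (-1.65), Hist1h2bk (-1.62), Hist1h2bl (-1.59), Hist1h2ab (-1.48) and Hist1h2bb (-1.42). Hist1h1c was at 370.9, 493.4, 499.2, 334.4 and 563.7 FPKM in TM, mostly inside the CON range, with a log2 fold change of 0.18 (limma, adjusted p = 0.49), and Hist1h1e had one of 0.07.

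The count of 21 rests on which TM libraries are used. Of the 21 genes, 8 kept their call whichever single library was left out (Hist1h2ac, Hist1h2ad, Hist1h2ag, Hist1h2bc, Hist1h4a, Hist1h4h, Hist1h4i and Hist2h2be). The call of Hist1h2bm was lost in 5 of 13 such fits, that of Hist1h2bk in 6, that of Hist1h2bb in 7, and those of Hist1h2ab and Hist1h2bl in 3 each. Without TM replicate 3 the count was 43, and it was 10 without TM replicate 5, 10 without TM replicate 7 and 9 without TM replicate 8.

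DSS was compared with CON to ask what colitis did under distilled water. Of 56 genes tested, 9 were lower in DSS and none was higher, against 13.1% lower and 14% higher among all 13483 genes tested, so the share of lower genes (16.1%) was near that of all genes. The median log2 fold change was -0.82 over the histone genes and -0.01 over all genes, and 27 of the 56 were lower at an unadjusted p under 0.05 (20.3% of all genes tested). Of the 9 genes, 5 encode H4 (Hist1h4a, Hist1h4h, Hist1h4i, Hist1h4j and Hist1h4k), 3 encode H2B (Hist1h2bb, Hist1h2bc and Hist2h2be) and 1 encodes H2A (Hist1h2ad). Only Hist2h2be had every DSS library below every CON library, which 3.72% of all genes tested showed.

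Hist2h2be, which shares no stretch of 50 bases with other transcripts, was at 4.12, 3.25, 2.11, 3.80 and 1.84 FPKM in DSS, against 4.77 to 7.41 FPKM with a median of 5.90 FPKM in CON (-0.82 ± 0.156; limma, adjusted p = 0.0026). Hist1h4i was at 52.9, 41.0, 19.99, 52.4 and 32.8 FPKM in DSS, against 44.2 to 122.7 FPKM in CON. In this gene 3 DSS libraries were below the CON range and the others in its lower part (-1.05 ± 0.256; limma, adjusted p = 0.00928). Hist1h2ad was at 8.96, 3.52, 3.72, 6.72 and 2.61 FPKM in DSS, against 7.16 to 31.8 FPKM with a median of 11.95 FPKM in CON, so that only DSS replicate 1 reached the CON range (-1.34 ± 0.345; limma, adjusted p = 0.0122).

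The other called genes had log2 fold changes of -1.45 (Hist1h2bb), -1.24 (Hist1h4k), -0.93 (Hist1h4j), -0.68 (Hist1h4h), -0.64 (Hist1h4a) and -0.59 (Hist1h2bc), with adjusted p between 0.0336 and 0.0489. Among genes that did not pass are some with larger fold changes, such as Hist1h2bm (-2.004; limma, adjusted p = 0.0574) and Hist1h3b (-1.76, 0.0836). Hist1h3b was at 104.8, 5.24, 2.87, 11.02 and 6.76 FPKM in DSS, so DSS replicate 1 was near the top of the CON range and the other 4 DSS libraries were below it. Hist1h1c (0.11) and Hist1h1e (0.29) did not pass either, with adjusted p of 0.732 and 0.479.

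Only Hist1h2ad, Hist1h4i and Hist2h2be kept their call whichever single library was left out. The count of 9 was 44 without DSS replicate 1 and 14 without CON replicate 6. It was 3 without DSS replicate 5 or 7 or CON replicate 1, 3 or 5, and 5 without DSS replicate 2 or 6 or CON replicate 4 or 7. With the percentage of reads mapped as a covariate it was 0, and then 26 genes of all passed, against 3655 without the covariate. As every DSS library had a lower percentage mapped than every CON library, the mapping and the colitis cannot be told apart here.

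**Figure D3:**
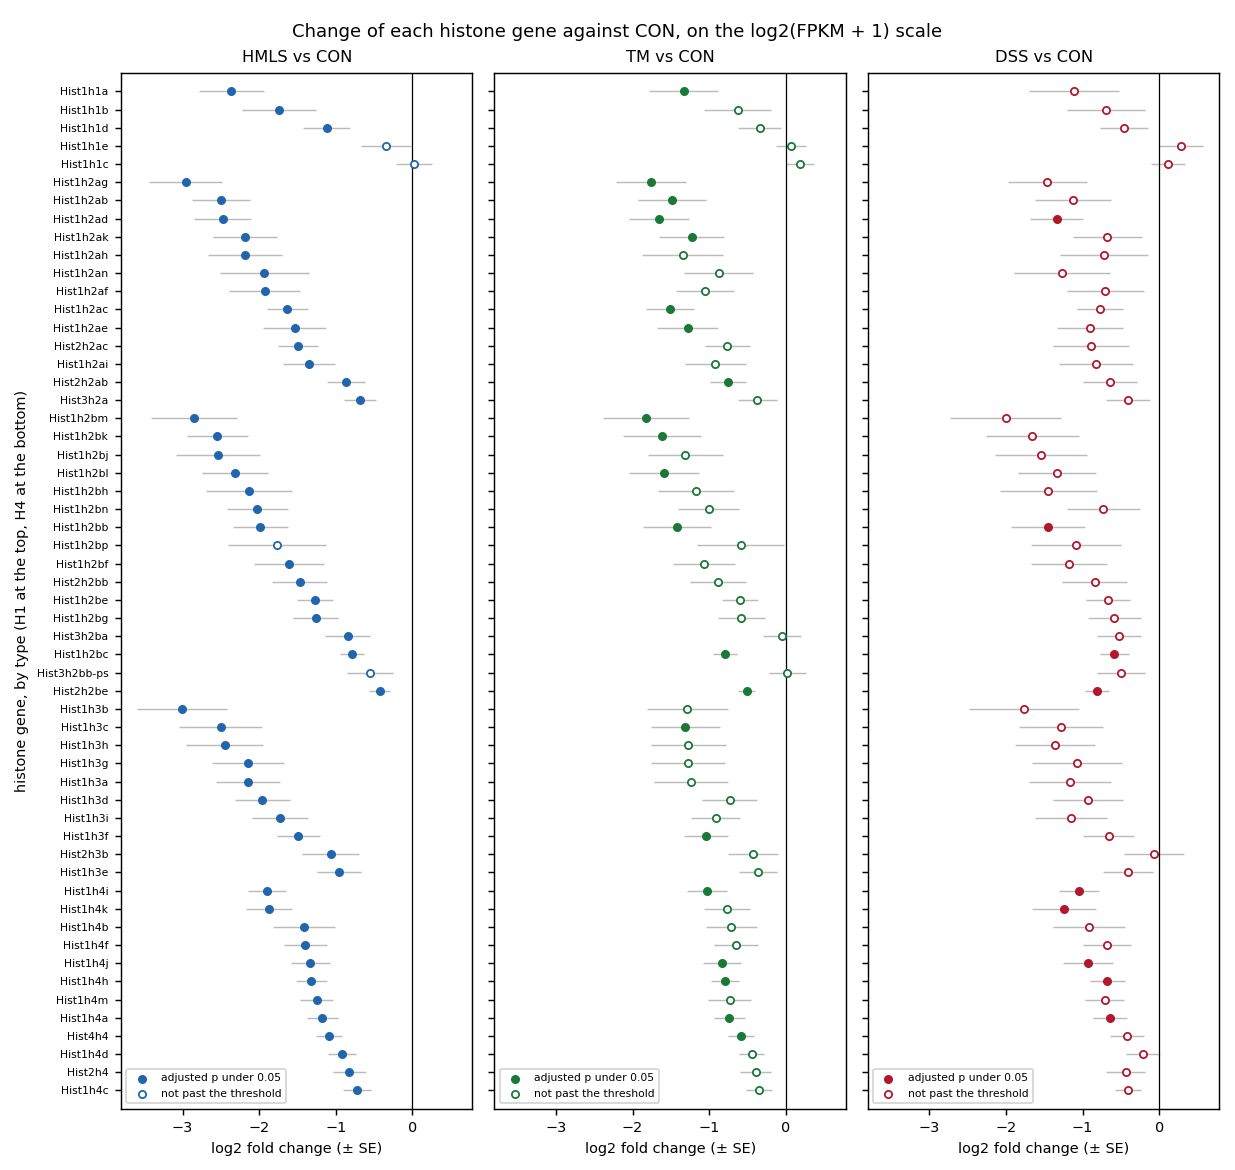
Log2 fold change of each tested histone gene in HMLS, TM and DSS (panels from left to right), each against CON, on the log2(FPKM + 1) scale with its SE as a bar. Filled points passed at an adjusted p under 0.05 in limma, which was 52, 21 and 9 of 56 genes, and Hist1h1c lies close to 0 in all panels. The panels share the CON libraries.

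DSS replicate 1 held the highest DSS value in 53 of the 56 genes, and TM replicate 3 the highest TM value in 50. CON replicate 1 was highest in its group in 43 genes and CON replicate 3 in 9. In HMLS the highest value was spread over the libraries, with replicate 8 leading in 26 genes, replicate 7 in 19, replicate 3 in 9 and replicate 6 in 2. The ratio of the highest to the lowest library of a group had a median over the genes of 2.31 in HMLS, 3.40 in TM, 6.52 in DSS and 3.70 in CON, where genes with a library at 0 are not counted. It reached 60.8 for Hist1h2bm in DSS.

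HMLS was compared with DSS, and TM with DSS, to ask what the waters changed under DSS, and HMLS with TM to set the waters side by side. None of the 57 histone genes tested passed in any of these comparisons, nor did any of the 13341 genes tested (0% in each, limma). In HMLS against DSS 55 of the 57 genes had a negative log2 fold change (50.2% of all genes), with a median of -0.67 over the histone genes and 0.00 over all genes. At an unadjusted p under 0.05, 15 were lower and 1 was higher, against 2.6% and 2.95% of all genes tested. The lowest adjusted p was 0.849.

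The smallest unadjusted p among genes lower in HMLS than in DSS were those of Hist1h2ak, Hist1h4d and Hist1h2ad. Hist1h2ak, an H2A gene, was at 9.19, 6.82, 17.4 and 15.5 FPKM in HMLS, against 115.9, 29.8, 19.2, 32.6 and 21.99 FPKM in DSS. The groups did not overlap, as in 2 of the 57 genes and 0.607% of all, and the log2 fold change was -1.51 ± 0.501 (limma, adjusted p = 0.849). Hist1h4d was at 237.4, 180.1, 216.5 and 149.7 FPKM in HMLS, against 598.3, 291.6, 233.0, 236.4 and 318.6 FPKM in DSS, with a slight overlap (-0.70 ± 0.236). The 1 gene higher at an unadjusted p under 0.05 was Hist2h2be (0.39 ± 0.181), at 4.21, 3.47, 5.19 and 3.81 FPKM in HMLS. Without DSS replicate 1 the median over the histone genes was -0.36, and with the percentage mapped as a covariate it was -1.19.

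In TM against DSS the histone genes lay on both sides of 0, with 27 of 57 negative (49.2% of all genes) and a median of 0.02, against 0.00 over all genes. At an unadjusted p under 0.05, 1 gene was lower, against 0.899% of all, and none was higher, against 1.85%. It was Hist1h2ac (-0.74 ± 0.325; limma, adjusted p = 1), at the TM values given above against 37.7, 12.5, 17.9, 19.8 and 11.3 FPKM in DSS, which overlap. The genes with the smallest p among those higher in TM were Hist2h2be (0.31), Hist3h2ba (0.47) and Hist3h2bb-ps (0.51). The median over the histone genes ran from -0.24 without TM replicate 3 to 0.36 without DSS replicate 1, and its sign changed in 6 of the 10 fits that left out 1 library. With the percentage mapped as a covariate it was -0.70. As that percentage separates TM from DSS completely, the mapping and the water cannot be told apart here.

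In HMLS against TM 55 of the 57 genes had a negative log2 fold change (51.6% of all genes), with a median of -0.73 over the histone genes and -0.01 over all genes. At an unadjusted p under 0.05, 7 were lower and none was higher, against 4.48% and 4.96% of all genes tested, and the lowest adjusted p was 0.46. Hist1h4i had the smallest p, with the HMLS values given above against 63.7, 29.4, 54.5, 31.6 and 24.9 FPKM in TM, where 1 HMLS library reached the TM range (-0.87 ± 0.317). Hist1h3d (-1.23 ± 0.481) and Hist1h4k (-1.10 ± 0.464) came next, both without overlap of the groups, which 3 of the 57 genes and 2.2% of all genes showed. Hist1h1c had a log2 fold change of -0.16 ± 0.283. Without TM replicate 3 the median over the histone genes was -0.49, and with the percentage mapped as a covariate it was -0.43.

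Some features of the genes went along with the size of the decrease in HMLS against CON, and none of these differences was tested. Genes whose transcript ends near the stem-loop, such as Hist1h3b, had a median log2 fold change of -2.15 (17 genes, 16 lower). Those with a transcript running more than 100 bases past it, such as Hist1h1c and Hist4h4, had one of -1.12 (19 genes, 17 lower), and those without the letters in a transcript one of -1.80 (20 genes, 19 lower). The level went along in the same way, with -1.12 for the 15 genes averaging 100 FPKM or more in CON and -1.90 for the 41 others. So did shared sequence, with -2.03 for 23 genes of which 50% or more is shared and -1.32 for 33 genes of which less is. The medians by place were -1.82 for 46 genes on chromosome 13, -0.96 for 6 on chromosome 3 and -0.68 for 3 on chromosome 11.

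The same split by the stem-loop gave medians in TM against CON of -1.29 for transcripts ending near it, -0.58 for those running past it and -0.90 for those without the letters. In DSS against CON the medians were -1.18, -0.52 and -0.77 in that order. Of the 6 genes known in human also to give poly(A) mRNAs, 5 are in the table, and in HMLS 4 of them were lower (Hist1h2ac, Hist1h2bj, Hist1h2bk and Hist2h2be) while Hist1h1c was not. In TM 3 of these were lower, and in DSS 1 was. In the mouse annotation the transcripts of Hist1h2bj and Hist1h2bk end 23 and 30 bases after the stem-loop. Those of Hist1h1c and Hist1h2ac run 840 and 2010 bases past it, and that of Hist2h2be lacks the letters. Whether the human trait holds for these mouse genes was not tested.

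Genes that copy DNA moved in the same direction. The list of 29 genes of DNA replication and S phase was tested in full, and 22 were lower in HMLS than in CON, 11 in TM and 11 in DSS, with none higher, at median log2 fold changes of -0.70, -0.50 and -0.52. Among all genes tested, 16.6% were lower in HMLS, 11.8% in TM and 13.1% in DSS. In the list, the largest decrease was that of Mcm6, a subunit of the replicative helicase, at -1.97 in HMLS, -1.37 in TM and -1.36 in DSS. The sliding clamp Pcna had log2 fold changes of -0.64, -0.63 and -0.54 in that order, and the DNA primase subunit Prim1 of -1.31, -0.90 and -0.97. Summed, the list was at 106.8, 105.6, 136.7 and 158.9 FPKM in HMLS, 241.2, 111.3, 139.1, 120.0 and 130.9 FPKM in TM, and 248.8, 135.3, 127.7, 158.9 and 117.7 FPKM in DSS, against 166.9 to 355.3 FPKM in CON. TM replicate 3 and DSS replicate 1 were the highest of their groups here too, and all HMLS libraries were below every CON library.

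Of 19 mitosis genes tested, 6 were lower in HMLS (among them Top2a, which untangles DNA, at -1.20, and the proliferation marker Mki67 at -1.05), while none passed in TM or DSS. At an adjusted p under 0.05 and in all 3 comparisons none of the mitosis genes was higher, and 16.6% of all genes tested were lower in HMLS. The sum of the mitosis genes was 40.1, 33.5, 93.3 and 113.7 FPKM in HMLS, 221.1 FPKM in TM replicate 3 and 61.4 to 73.1 FPKM in the other TM libraries. It was 225.2 FPKM in DSS replicate 1 and 46.5 to 104.2 FPKM in the other DSS libraries, against 70.4 to 225.0 FPKM in CON, so all groups overlapped CON. How far the number of dividing cells accounts for the histone values was not tested.

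Genes listed as replication-independent histones behaved differently from gene to gene. Of 11 such genes, H3f3b, which encodes the replacement histone of the H3 type, was higher in each group, at 426.1, 242.7, 291.2 and 490.2 FPKM in HMLS, 236.3, 285.1, 272.6, 389.1 and 308.2 FPKM in TM and 269.3, 242.5, 406.1, 227.9 and 350.2 FPKM in DSS, against 163.0 to 221.4 FPKM in CON. None of its colitis libraries overlapped CON, and the log2 fold changes were 0.77, 0.52 and 0.51 (limma, adjusted p = 0.00262, 0.00488 and 0.0133). H2afx, known for its role at DNA breaks, was lower in HMLS (-1.03), as was the variant H2afz (-0.60). H3f3a was lower in DSS (-0.33), and no other gene of this list passed in any of the comparisons with CON.

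Of the genes that make, process and degrade histone mRNA, 15 were tested in HMLS and 16 in TM and DSS. Lsm10, of the U7 particle, was lower, with log2 fold changes of -0.96 in HMLS, -0.85 in TM and -0.64 in DSS. It was at 2.90, 6.20, 9.68 and 2.72 FPKM in HMLS, 8.34, 2.64, 5.72, 4.88 and 5.92 FPKM in TM and 8.05, 7.01, 3.71, 8.81 and 4.90 FPKM in DSS, against 8.45 to 13.7 FPKM in CON. The stem-loop binding protein Slbp was lower in TM (-0.51; limma, adjusted p = 0.031) and had log2 fold changes of -0.47 in HMLS (0.0887) and -0.49 in DSS (0.0627). Cstf2, a cleavage factor, was lower in HMLS (-0.33). The octamer-binding factor Pou2f1 was higher in HMLS (0.64) and in TM (0.37), and Npat, which switches on histone genes, had values of 0.35, 0.03 and -0.03 that did not pass.

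Of 11 histone chaperone and acetylation genes, Hira, which places the replacement H3 histone, was higher in HMLS (0.49), TM (0.43) and DSS (0.52). Nasp, a carrier of H3 and H4, was lower in each (-0.61, -0.50 and -0.52). Asf1b (-1.10) and the importin Ipo4 (-0.43) were lower in HMLS. The summed list of histone mRNA genes ran from 145.8 to 168.2 FPKM in HMLS, 151.5 to 192.4 in TM, 145.8 to 182.1 in DSS and 165.3 to 208.0 in CON.

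**Figure D4:**
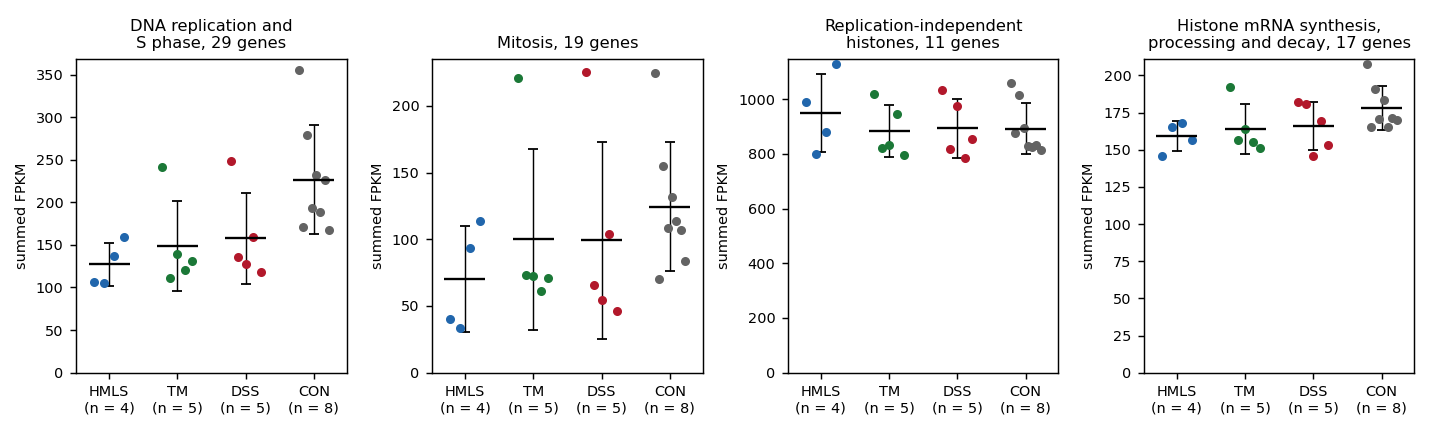
Summed FPKM per library of genes of DNA replication and S phase, of mitosis, of replication-independent histones and of histone mRNA synthesis, processing and decay, with HMLS, TM, DSS and CON from left to right. Points are libraries, the long line is the mean and the bar is the SD. In the first panel all HMLS libraries lie below CON, and TM replicate 3 and DSS replicate 1 are the highest of their groups in the first 2 panels.

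Other short RNAs without a poly(A) tail were checked because the library chemistry could affect them together with histone mRNAs. Of 5 such genes tested (Rmrp, Rnu12, Rpph1, Terc and Vaultrc5) none passed in HMLS, TM or DSS against CON, with medians of -0.09, -0.23 and 0.03. Their sums overlapped in all groups.

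Markers of other cells also moved with the groups, and their part in the histone values was not tested. Of 5 stem and crypt base genes tested, 5 were lower in HMLS, 4 in TM and 5 in DSS. Their list summed to 10.8 to 18.2 FPKM in HMLS, 14.3 to 29.7 in TM and 12.6 to 20.2 in DSS, below every CON library (32.9 to 42.9). The stem cell gene Lgr5 fell by 1.25, 1.43 and 1.40 on the log2 scale in that order. Of 8 B cell and germinal centre genes tested, 5 were lower in HMLS, 1 in TM and 3 in DSS, and the list summed to 0.677 to 6.66 FPKM in HMLS, 6.55 to 32.4 in TM, 2.50 to 15.7 in DSS and 4.22 to 60.0 in CON.

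Of 4 fat cell genes, none passed in HMLS and 4 were lower in TM and 4 in DSS, with medians of -1.23, -2.69 and -2.30 and sums of 30.1 to 396.8 FPKM in HMLS, 21.6 to 77.4 in TM, 30.4 to 103.4 in DSS and 60.04 to 834.7 in CON. Of 4 fibroblast genes, 3 were lower in HMLS, 1 in TM and 3 in DSS, with sums of 82.97 to 120.3, 84.2 to 369.6 and 57.6 to 163.2 FPKM in that order, against 196.5 to 285.4 FPKM in CON. Of 4 smooth muscle genes, none passed in HMLS, 3 were lower in TM and 2 in DSS, with overlapping sums.

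Among leukocytes other than B cells, 3 of 5 macrophage genes were lower in HMLS, none passed in TM and 1 was lower in DSS, with sums of 31.1 to 94.2 FPKM in HMLS, 109.6 to 174.4 in TM and at most 90.2 in DSS, against 63.7 to 166.6 FPKM in CON. Of the plasma cell genes, 2 of 4 were lower in HMLS, none passed in TM and 2 were lower in DSS. The 6 neutrophil genes with values summed to 2.02 to 19.9 FPKM in HMLS, 4.07 to 89.5 in TM and 2.77 to 60.2 in DSS, against 0.717 to 2.12 FPKM in CON. Only 1 of them passed the filter in HMLS, and 2 did in TM and in DSS, all of them higher by the test. With so little in CON, these genes could pass the filter largely through the colitis libraries, so the counts are no separate support. Elane, also in the neutrophil list, was listed at 0 in 21 of the 22 libraries. Of 3 endothelium genes, 2 were lower in HMLS, none passed in TM and 1 was lower in DSS. Of 4 T cell genes tested, 1 was lower in HMLS, none passed in TM and 1 was lower in DSS. In the erythroid list 1 of 2 genes tested was lower in HMLS, and none of 3 passed in TM or DSS. Beside all these marker lists, 16.6% of all genes tested were lower in HMLS, 11.8% in TM and 13.1% in DSS. Single calls in lists this short are not read as a result about a cell type.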

How the data were processed

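Total RNA libraries of colon were made with a stranded total RNA kit, per the labels' protocols. The authors deposited a read count and a percentage of reads mapped for each library, and an expression table whose unit the table does not name and which is taken here as FPKM. The submitters' processing notes list bcl2fastq 2.20, Bowtie, TopHat2 2.0.13, Cufflinks 2.2.0 and build mm10. Cufflinks divides reads among similar transcripts, so values of near-identical histone genes depend on that step.

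From the deposited FPKM, log2(FPKM + 1) was fitted with limma 3.58.1 in R 4.3.3 (trend and robust variance), for genes at 1 FPKM or more in at least 4 libraries of the fit, with Benjamini-Hochberg adjustment over all genes and a threshold of 0.05. Each comparison with CON had its own fit of 2 groups, and those among HMLS, TM and DSS shared 1 fit. Adding 1 makes fold changes of genes with low values smaller than they were. Sums and motif searches used Python 3.11. The fit was tested on simulated data. The genes named were, by rule, the 10 highest by mean, the highest of each type, testis genes, all genes called where at most 12 were and otherwise the 8 largest decreases, and where fewer than 3 passed the 3 smallest p in each direction. Further genes named in the text were chosen after their values were seen. The histone genes and all gene lists were chosen with earlier results of these data known. Alternatives were another pseudocount, other filters, scaling, a replicate block, the percentage mapped as a covariate, 1 fit of all 4 groups, no trend and robust variance, and leaving out each library. Same-numbered libraries of TM and DSS deviated together (correlations of 0.143 to 0.438 in 3 of 3 pairs), which by the rule used pairs them. Only 1 of these 3 pairs was its own best match, and the main fit did not use the pairing. With the block 0 genes of all passed in TM against DSS, as without it.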

Additional observations from a re-analysis of the deposited data

Results flagged for a closer look

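In 39 of 162 sets of 4 to 8 libraries of a group, the highest or lowest library stood apart from the rest of its group (Dixon's test at the 95% level). For a single set of normally distributed values chance gives about 1 in 20. The sets here share libraries, and the sums hold genes that were also tested singly, so the 39 cannot be set against that share. A gene at 0 in all but 1 library, as Hist1h2ba in DSS and in CON, always stands apart. Of the 39 sets, 18 were DSS replicate 1 and 14 TM replicate 3, each on the high side.

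In DSS replicate 1 the sums were 6584 FPKM for all histone genes, 755.6 for H2A, 1601 for H2B and 866.5 for H3. The single genes that stood apart there were Hist1h4d (598.3 FPKM), Hist2h2bb (375.1), Hist1h3e (239.6), Hist2h2ac (228.0), Hist1h2bb (140.1), Hist1h2ak (115.9), Hist1h3c (114.9), Hist1h2bl (111.4), Hist1h3b (104.8), Hist1h4k (97.74), Hist1h2bm (80.53), Hist1h3f (76.09), Hist1h2bk (64.66) and Hist1h2bj (32.68).

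In TM replicate 3 the sums were 419.3 FPKM for H2A, 1137 for H2B and 524.9 for H3. The single genes were Hist2h2bb (248.8 FPKM), Hist1h2bb (108.7), Hist1h3c (74.97), Hist1h2bm (63.66), Hist1h2bl (63.58), Hist1h2ak (62.42), Hist1h3b (51.19), Hist1h2bk (49), Hist1h3d (28.41), Hist1h2bj (26.43) and Hist1h2ag (11.45).

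The other libraries that stood apart were TM replicate 7 in the H1 sum (654.5 FPKM), HMLS replicate 3 in Hist1h2ac (12.87 FPKM), HMLS replicate 6 in Hist1h1t (1.561 FPKM) and DSS replicate 2 in Hist1h2ba (0.6239 FPKM). CON replicate 3 stood apart in Hist3h2bb-ps (4.081 FPKM), Hist1h1t (1.779 FPKM) and Hist1h2ba (0.3729 FPKM).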

How the results depend on the processing

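The histone genes called lower numbered 52 in HMLS, 21 in TM and 9 in DSS, each against CON. The list of alternatives was extended to every histone gene and to the sums after seeing the data. With a replicate block they were 29, 33 and 12, and the genes of all called in HMLS were 753, against 4565 without it. Same-numbered libraries of HMLS and CON had correlations of -0.125 to 0.0797, with 0 of 4 pairs over 0.1. Those of TM and CON had -0.00138 to 0.208, with 3 of 5 over 0.1, and those of DSS and CON -0.211 to 0.335, with 2 of 5 over 0.1. Whether same-numbered libraries of these groups and CON belong together is unknown. Under the block the calls lost in HMLS were 23 of the 52, among them Hist1h3b (adjusted p = 0.122), Hist1h2ag (0.0764), Hist1h2bm (0.114), Hist1h2bj (0.0758) and Hist1h3c (0.101) of the 8 largest decreases, in limma. In DSS the count was 0 with the percentage mapped as a covariate, and without a filter 4 were lower and 1 (Hist2h2aa2, 0.67; limma, adjusted p = 0.0322) was higher. The cause was not tested. Leaving out 1 library gave 45 to 53 in HMLS, 9 to 43 in TM and 3 to 44 in DSS. The other alternatives stayed within 1.5 times these counts, and the comparisons among HMLS, TM and DSS had 0 histone genes under every alternative. Over all 339 tests of a histone gene in a comparison, each under up to 21 alternatives, 203 values lost and 130 gained a call, 5850 kept direction and side of the threshold, and 223 uncalled values changed sign, while no called value changed sign. The depth behind each FPKM value is unknown.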
